A study of Mus musculus with 2 samples.

Results

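Matricellular genes encode secreted proteins that sit in the extracellular matrix and act on cells, and 10 of them are described here across the cells of the adult mouse bone marrow niche. They were chosen by gene symbol from the 27999 genes of the deposited matrix: the CCN genes Cyr61, Ctgf, Nov, Wisp1 and Wisp2, the tenascin gene Tnc, and Postn, Thbs1, Sparc and Sparcl1. The study profiled marrow cells marked by LepR-Cre;tdTomato (the LepR_tdT library) and marrow endothelial cells (the EC library) by droplet single-cell RNA sequencing. With 1 library per population no value has a replicate and no test between populations is possible. Both came from C57Bl/6JCrl mice aged 3 to 4 months that carry LepR-Cre and LSL-tdTomato, so these alleles are shared by both groups. In this line Cre is made where the leptin receptor gene is active, and tdTomato marks cells that have expressed it together with their descendants. The labels mention tamoxifen for an overlapping numbering of samples and state no sorting gate, so whether these mice received it is not known here. How many mice went into each library is not given in the sources used here.

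Matricellular proteins do little to hold the matrix together. They bind integrins, heparan sulfate chains and growth factors, and so change how a cell reads its surroundings. Cyr61 and Ctgf are textbook targets of the YAP and TAZ coactivators, which act through TEAD factors, while tenascin-C and periostin are known from developing, healing and bone-forming tissue.

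A UMI is a counted RNA molecule, and levels are UMIs per 1000000 UMIs of a class (CPM) with 95% Poisson intervals in brackets. Ratios carry 95% exact binomial intervals, and shares of cells exact Clopper-Pearson intervals. All intervals cover counting error within a library and not variation between animals. A gene is called higher or lower at a ratio of at least 2 with at least 20 UMIs in both classes together and more than 3 in the higher one, counting fewer than 3 UMIs in the lower class as 3, which is a statement of size and not a test. The LepR_tdT library held 18139911 UMIs in its 4250 cells (median 4347 per cell) and the EC library 14111524 in 4536 cells (median 3084.5), and 42 cell barcodes occurred in both.

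Cells were clustered without the 10 genes and named from markers. The LepR_tdT library had 2952 LepR+ stromal-like, 263 osteolineage-like, 17 pericyte-like and 61 endothelial-like cells, and 250 cells of cluster 7, which expresses stromal markers but stayed unnamed because the chondrocyte marker Comp was among its leading genes (Cxcl5, Kit and others). The EC library had 253 arterial-like and 3427 sinusoidal-like cells, together 3680 endothelial-like cells. Most sinusoidal-like cells were in cluster 1 (1985 cells) or in cluster 2 (1402 cells, led by stress genes such as Apold1, Atf3 and Klf4). The remaining cells were in the unnamed clusters 3 and 4, which are led by mitochondrial genes and mostly shallow (medians of 334 and 568.5 UMIs for cluster 3 in LepR_tdT and EC and 508 for cluster 4 in LepR_tdT), or erythroid-like (19 LepR_tdT and 84 EC cells) or granulocyte-like (24 and 41). The labelled populations differed in their defining markers. Over all cells Lepr stood at 608 CPM in LepR_tdT and 16.4 CPM in EC, and Cdh5 (VE-cadherin) at 9.48 and 793 CPM. In the LepR_tdT stromal-like and EC endothelial-like classes Lepr stood at 667 and 16.7 CPM, and Cdh5 at 1.07 and 839 CPM. Both genes are among the markers that named these classes. Free RNA was read from barcodes of at most 100 UMIs outside the cell table, and from haemoglobin, S100a8 and S100a9 transcripts it was estimated at 2.12% of the UMIs of the stromal-like class and 3.03% of those of the EC endothelial-like class. These shares need not hold for each gene. Sparcl1 had 156 CPM in EC free RNA, and 3.03% of that is more than its 1.00 CPM in sinusoidal-like cells.

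The promoters of Cyr61, Tnc and Postn are shown because, of the 4 genes in the promoter table, these are the ones called higher or lower in the comparisons of classes below. Each is the 250 bases before the start site, 5′ to 3′ on the strand of the gene, from RefSeq on GRCm38.p6. Capitals mark the TEAD motif GGAATG and the TATA box TATAAA on either strand.
Cyr61, chr3:145649986-145650235, minus strand: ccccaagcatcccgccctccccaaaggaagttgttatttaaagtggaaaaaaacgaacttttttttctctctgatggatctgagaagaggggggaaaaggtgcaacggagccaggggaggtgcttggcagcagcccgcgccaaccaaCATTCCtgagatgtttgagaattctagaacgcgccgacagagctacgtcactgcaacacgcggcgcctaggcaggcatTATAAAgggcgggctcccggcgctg
Tnc, chr4:64047016-64047265, minus strand: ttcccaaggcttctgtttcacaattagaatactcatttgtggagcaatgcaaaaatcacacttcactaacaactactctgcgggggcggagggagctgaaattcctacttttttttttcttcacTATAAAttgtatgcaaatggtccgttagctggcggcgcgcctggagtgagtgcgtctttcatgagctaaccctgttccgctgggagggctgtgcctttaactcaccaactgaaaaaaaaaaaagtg
Postn, chr3:54360857-54361106, plus strand: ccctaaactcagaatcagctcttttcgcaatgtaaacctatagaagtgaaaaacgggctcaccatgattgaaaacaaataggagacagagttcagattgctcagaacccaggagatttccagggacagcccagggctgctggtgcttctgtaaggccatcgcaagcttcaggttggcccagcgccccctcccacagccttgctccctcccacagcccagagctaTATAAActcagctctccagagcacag
The Cyr61 window held the TEAD motif as its reverse complement CATTCC, 103 bases before the start, and TATAAA 25 bases before it. TATAAA began 26 bases before the Postn start and 126 bases before the Tnc start, and neither of these windows held GGAATG. A further start is listed for each of Tnc and Postn and is not shown. TATAAA began 205 bases before that of Tnc, and that window of Postn held none. None of these windows held the AP-1 motif TGANTCA or a CArG box, the motif of serum response factor. Of 32851 RefSeq windows of this length 12.6% held GGAATG, 12.4% TATAAA, 6.75% TGANTCA and 1.47% a CArG box.

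Among the CCN genes, Cyr61 had 36257 UMIs in all cells, Wisp2 10946, Ctgf 3118, Wisp1 299 and Nov 2. The remaining mouse CCN gene, Wisp3, had 3 UMIs in LepR_tdT and 2 in EC. Nov (ENSMUSG00000037362, chromosome 15, 54745702 to 54754039, plus strand on GRCm38) was seen in 1 osteolineage-like cell and 1 cell of the shallow cluster 4. It was seen in 0 of 4536 EC cells, a count whose interval reaches 0.261 CPM.

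Cyr61 (ENSMUSG00000028195, chromosome 3, 145646976 to 145649981, minus strand) encodes an immediate early ligand of integrins and was higher in all LepR_tdT classes listed here than in the endothelial classes of EC. In the LepR_tdT library it stood at 2744 CPM (2657 to 2833) in osteolineage-like cells, 1948 (1879 to 2019.6) in cluster 7, 1784 (1762 to 1806) in stromal-like, 1254 (1006 to 1545) in pericyte-like and 812 (693 to 947) in endothelial-like cells. In the EC library it stood at 486 CPM (467 to 504) in sinusoidal-like cluster 2, 107 (87.1 to 131) in arterial-like cells and 71.1 (64.6 to 77.9) in sinusoidal-like cluster 1. No neighbours in this order had overlapping intervals. A Cyr61 UMI was found in 87.3% of stromal-like cells. It was found in 60.8% (59.0 to 62.6) after each cell was thinned to 1000 UMIs, which leaves out cells with fewer, here and below. In EC endothelial-like cells the shares were 29.2% and 15.4% (14.2 to 16.6). EC erythroid-like and granulocyte-like cells, which should lack the gene, had it in 0 of 38 and 1 of 41 thinned cells. Of the 84 erythroid-like cells 46 were too shallow to be thinned. Median depths of all cells of these classes were 843 and 10519 UMIs, against 3403 in the endothelial-like class. In the LepR_tdT library a single erythroid-like barcode held 65 of the 67 Cyr61 UMIs of its class.

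Ctgf (ENSMUSG00000019997, chromosome 10, 24595442 to 24598683, plus strand), a target of TGF-beta as well as of YAP and TAZ, lay within 2-fold between stromal-like and sinusoidal-like cells and was low in a subset of each population. It stood at 146 CPM (126 to 168) in osteolineage-like, 122 (116 to 128) in stromal-like and 34.7 (26.0 to 45.4) in cluster 7 cells, and the intervals of the osteolineage-like and stromal-like classes overlap. In EC it stood at 89.8 CPM (82.0 to 98.1) in cluster 2, 73.6 (67.1 to 80.6) in cluster 1 and 7.84 (3.15 to 16.1) in arterial-like cells. The 17 pericyte-like cells had 0 UMIs, where 3 UMIs would be 42.7 CPM. Free RNA held 58.0 CPM in LepR_tdT and 54.5 CPM in EC.

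Wisp2 (ENSMUSG00000027656, chromosome 2, 163820861 to 163833146, plus strand) lacks the C-terminal module of its CCN relatives, and its UMIs lay almost wholly in the LepR_tdT library. It stood at 717 CPM (704 to 732) in stromal-like, 331 (301 to 363) in osteolineage-like and 101 (85.5 to 118) in cluster 7 cells, against 1.09 (0.596 to 1.83) in the EC endothelial-like class. Among the named classes the stromal-like one was highest, whereas Cyr61, Ctgf and Wisp1 were highest in the osteolineage-like class. Thinned, 40.8% (39.0 to 42.6) of stromal-like and 18.9% (14.3 to 24.2) of osteolineage-like cells had a UMI. LepR_tdT granulocyte-like cells had one in 2 of 24 thinned cells (median depth 9280 UMIs against 4621.5 in the stromal-like class).

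Wisp1 (ENSMUSG00000005124, chromosome 15, 66891320 to 66923201, plus strand) is a Wnt-induced CCN gene known from bone-forming cells. It stood at 113 CPM (96.2 to 133) in osteolineage-like and 8.97 (7.47 to 10.7) in stromal-like cells. Cluster 7 had 1 UMI and the EC endothelial-like class 9 (0.701 CPM, 0.320 to 1.33). The osteolineage-like level thus lay far above those of the stromal-like, cluster 7 and endothelial-like cells.

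Tnc (ENSMUSG00000028364, chromosome 4, 63959785 to 64047015, minus strand) encodes tenascin-C, a large glycoprotein that weakens cell adhesion. It stood at 1834 CPM (1763 to 1907) in osteolineage-like, 909 (893 to 924) in stromal-like, 316 (288 to 345) in cluster 7 and 71.2 (23.1 to 166) in pericyte-like cells. After thinning, a Tnc UMI was found in 72.2% of osteolineage-like, 53.7% of stromal-like and 20.2% of cluster 7 cells, and in 6 of 24 granulocyte-like cells of the same library. Those granulocyte-like cells held 436 CPM of Tnc and 6962 CPM of LepR+ stromal markers (14 of 14 seen), whose part in it was not tested. The 61 endothelial-like cells of LepR_tdT held 14 Tnc UMIs (69.4 CPM, 37.9 to 116), while the 3680 of EC held 1. LepR+ stromal markers summed to 4364 CPM in the former (14 of 14 seen) and 2498 CPM in the latter (13 of 14), and their part in the difference was not tested.

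Postn (ENSMUSG00000027750, chromosome 3, 54361109 to 54391037, plus strand) encodes periostin, a protein of the periosteum and of loaded connective tissue. It stood at 343 CPM (313 to 375) in osteolineage-like and 199 (109 to 335) in pericyte-like cells, the latter from 14 UMIs in 8 of 17 cells. Stromal-like cells had 2.49 CPM (1.73 to 3.46) and cluster 7 had 1 UMI. The osteolineage-like cells, 6.19% of the library, held 472 of its 542 Postn UMIs, in 131 of 263 cells. EC cells held 5 UMIs in all.

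Thbs1 (ENSMUSG00000040152, chromosome 2, 118111876 to 118127133, plus strand) encodes thrombospondin-1, an inhibitor of vessel growth that is also stored in platelets. It stood at 64.1 CPM (52.1 to 78.1) in cluster 7, 40.6 (37.4 to 44.1) in stromal-like and 26.1 (18.3 to 36.2) in osteolineage-like cells, the reverse of the order of Tnc in these classes. EC endothelial-like cells had 1.64 CPM (1.01 to 2.50) from 21 UMIs, less than the 9.93 CPM of the free RNA of that library. A single barcode held 164 of the 900 Thbs1 UMIs of LepR_tdT, and 8350 of its 87778 UMIs fell on megakaryocyte markers (7 of 7 seen), the markers of the cells that make platelets. It was among the 36 cells of cluster 3 in that library.

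Sparc (ENSMUSG00000018593, chromosome 11, 55394500 to 55423183, minus strand) encodes the collagen-binding glycoprotein osteonectin and was present in all niche classes. It stood at 8107 CPM (7455 to 8802) in pericyte-like, 6136 (6006 to 6269) in osteolineage-like, 3872 (3774 to 3972) in cluster 7 and 3257 (3227 to 3287) in stromal-like cells of LepR_tdT. In EC it stood at 6305 CPM (6141 to 6472) in arterial-like cells, 3739 (3692 to 3787) in sinusoidal-like cluster 1 and 3458 (3409 to 3508) in cluster 2. Ordered together, the intervals of arterial-like and osteolineage-like cells overlap, as do those of cluster 7 and sinusoidal-like cluster 1. Thinned, 92.9% of stromal-like and 95.2% of EC endothelial-like cells had a Sparc UMI, against 34.2% (19.6 to 51.4) of EC erythroid-like and 24.4% (12.4 to 40.3) of EC granulocyte-like cells.

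Sparcl1 (ENSMUSG00000029309, chromosome 5, 104079111 to 104113733, minus strand), the paralog of Sparc known as hevin, was sparse and marked pericyte-like and arterial-like cells. It stood at 1012 CPM (790.1 to 1276) in pericyte-like cells, with UMIs in 14 of 17 cells, and was there 197-fold (140.2 to 278) above stromal-like cells. Arterial-like cells had 115 CPM (94.1 to 139.9). Cluster 7 had 19.0 (12.7 to 27.2), osteolineage-like 7.26 (3.48 to 13.4), stromal-like 5.12 (4.01 to 6.45) and sinusoidal-like cells 1.00 CPM (0.519 to 1.75). Thinned, 7.39% (4.36 to 11.6) of arterial-like and 0.0592% (0.00717 to 0.214) of sinusoidal-like cells had a UMI. Free RNA held 170.2 CPM (156 to 185) in LepR_tdT and 156 (143 to 169.6) in EC, above the 10.6 and 8.72 CPM of the cells.

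**Figure D1:**
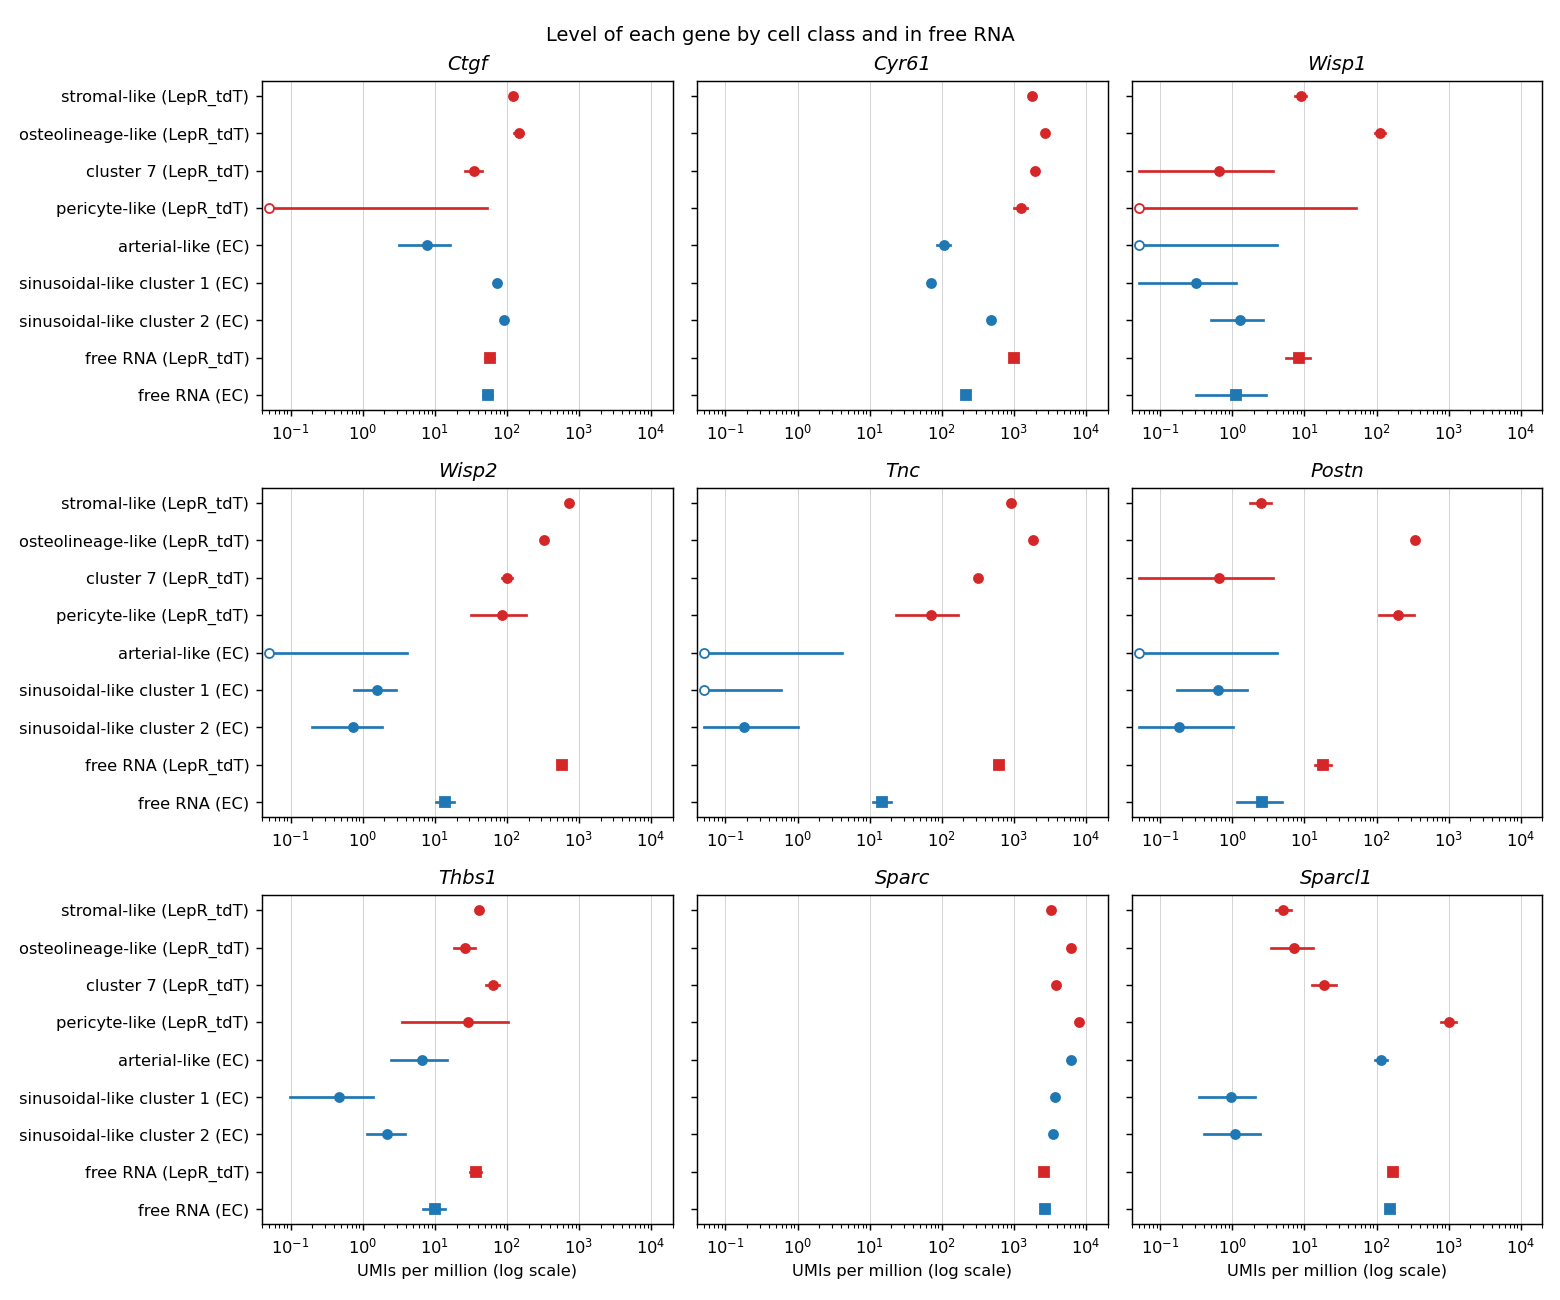
Level of 9 of the genes (Nov is left out) in CPM on a log axis, by cell class (circles) and in free RNA (squares), red for the LepR_tdT and blue for the EC library. Lines are 95% Poisson intervals, open circles mark 0 UMIs, and values under 0.05 are drawn at 0.05. Tnc and Wisp2 separate red from blue classes, Sparc is high in all niche classes, and Sparcl1 reaches 1012 CPM in pericyte-like cells.

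Over all cells, 6 of the 9 genes measured were higher in LepR_tdT, 0 were lower and 3 were neither, beside 21.2% of 13456 genes higher and 17.9% lower. The median log2 ratio of the 9 was 4.65 and that of all genes 0.08. Cyr61, Wisp1, Wisp2, Tnc, Postn and Thbs1 were the higher ones, and these 6 were also higher when LepR_tdT stromal-like cells were set against EC endothelial-like cells. In that comparison 21.5% of 12854 genes were higher and 17.8% lower, and the median log2 ratio was 2.83 for the 9 and 0.10 for all genes. Cell type, library and preparation cannot be told apart in these comparisons.

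Tnc had 12769 UMIs in the stromal-like class and 1 in the EC endothelial-like class, 11668-fold (2094 to 460893). Wisp2 was 658-fold (392 to 1204) higher in the stromal-like class, Thbs1 24.8-fold (16.1 to 40.5), Wisp1 12.8-fold (6.53 to 28.6), Cyr61 7.09-fold (6.84 to 7.36) and Postn 6.40-fold (2.50 to 20.9), the last from 35 and 5 UMIs. The remaining genes lay within 2-fold. Ctgf was 1.61-fold (1.49 to 1.75) higher in the stromal-like class, Sparc 1.17-fold (1.15 to 1.18) and Sparcl1 1.75-fold (1.29 to 2.38) higher in the endothelial-like class. Without the stress-led cluster 2 the log2 ratio of Cyr61 moved from 2.83 to 4.53 and that of Sparcl1 from -0.81 to -1.53, a size that would be called. The Sparcl1 UMIs of the endothelial-like class were unevenly divided. Its 253 arterial-like cells held 103 of the 115, and its 3427 sinusoidal-like cells, at 1.00 CPM, lay below the 5.12 CPM of the stromal-like class.

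The 61 endothelial-like cells of LepR_tdT allow the same cell classes to be set side by side within that library. Against its stromal-like cells Wisp2 was 14.5-fold (7.87 to 30.2) and Tnc 13.1-fold (7.81 to 24.0) lower in them, and Cyr61 2.20-fold (1.88 to 2.58) lower, a smaller ratio than between the libraries. Sparcl1 was 6.77-fold (2.63 to 14.7) higher, from 7 UMIs. Thbs1, Wisp1 and Postn had 0 UMIs there, where 3 UMIs would be 14.9 CPM. The endothelial-like cells of the 2 libraries also differed from each other. Wisp2 was 45.4-fold (18.1 to 110.0), Cyr61 3.23-fold (2.74 to 3.78) and Sparcl1 3.87-fold (1.52 to 8.24) higher in those of LepR_tdT, while Sparc was 1.03-fold (0.958 to 1.11) lower, within counting error. The part of the stromal markers given with Tnc above was not tested.

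**Figure D2:**
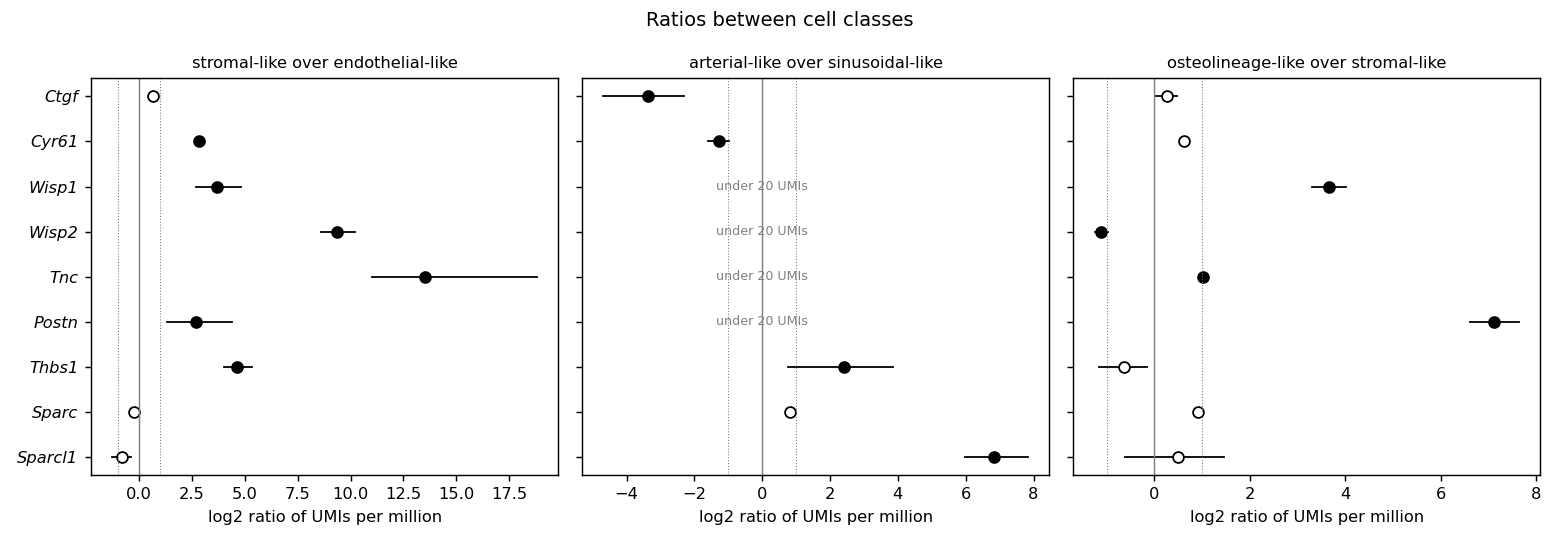
Log2 ratio of CPM between 3 pairs of cell classes, with 95% exact binomial intervals. Filled points are called ratios, open points are not, dotted lines mark a ratio of 2 in either direction, and the panels have different axes. The largest ratio is that of Tnc in the first panel, of Sparcl1 in the second and of Postn in the third.

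Other matricellular genes were mostly higher in the stromal-like class as well. Of 20 listed, 13 were measured, 11 were higher there and 2 (Spock2 and Tgfbi) lower, with a median log2 ratio of 6.08. Of all genes 21.5% were higher there and 17.8% lower. Spp1, which encodes osteopontin, was 5027-fold (3048 to 8983) higher. Spon1, which encodes spondin-1, had 1232 against 1 UMIs, 1126-fold (202 to 44501). The Sparc-related genes Smoc2 (894 against 1 UMIs) and Smoc1 (1369 against 2) had ratios of 817-fold (146 to 32302) and 625-fold (173 to 5169.9).

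Receptors of these proteins were divided between the populations. Of 17 measured of 18, 8 were higher in the stromal-like class, 5 lower and 4 neither, with a median log2 ratio of 0.24. The shares of all genes were 21.5% higher and 17.8% lower. Cd36, a thrombospondin-1 receptor and fatty acid transporter, was 530.3-fold (296 to 1063) higher in the endothelial-like class. Lrp1, an endocytic receptor, was at least 837-fold higher in the stromal-like class (2747 UMIs against 0, set to a floor of 3 UMIs over the class). Egfr was at least 302-fold higher on the same floor (990 UMIs against 0), and the collagen receptor Ddr2 137-fold (80.0 to 258).

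Of 16 measured of 18 genes of the YAP, TAZ and TEAD machinery and its targets, 1 was higher in the stromal-like class, 4 were lower and 11 neither, beside the 21.5% and 17.8% of all genes given above, with a median log2 ratio of -0.39. Tead3 was 23.2-fold (11.0 to 58.6) higher in the stromal-like class. Crim1 was 3.70-fold (3.43 to 4.01), Tead4 3.25-fold (2.22 to 4.86) and Wwtr1, which encodes TAZ, 2.14-fold (1.91 to 2.40) higher in the endothelial-like class. Of 14 measured of 15 targets of TGF-beta or serum response factor, 8 were higher in the stromal-like class and 0 lower, with a median log2 ratio of 2.00. These counts stand beside the same 21.5% and 17.8% of all genes. Ltbp2, a latent TGF-beta binding protein gene, had 2000 against 1 UMIs, 1828-fold (328 to 72219). The contractile genes Myl9 and Tpm2 were 310.5-fold (163 to 679.6) and 82.6-fold (47.1 to 160.4) higher.

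Within the EC library, Sparcl1 and Thbs1 were higher in arterial-like than in sinusoidal-like cells, Ctgf and Cyr61 were lower and Sparc was neither. These were the 5 genes measured, beside 8.36% of 11105 genes higher and 4.58% lower. Sparcl1 was 115-fold (63.0 to 229) higher, with 103 and 12 UMIs. Pericyte markers summed to 607 CPM in arterial-like and 1228 CPM in sinusoidal-like cells (5 of 10 seen in each), with Acta2, Myh11, Notch3, Des and Cspg4 at 0 in both. Kcnj8 (380 and 681 CPM), Rgs4 (82.9 and 480) and Tagln (1.12 and 5.44) were lower in arterial-like cells. Mcam (139 and 60.5 CPM) and Rgs5 (4.48 and 0.251, from 4 and 3 UMIs) were higher there. The part of pericyte markers was not tested. Fibroblast markers, which share Ly6a with the arterial list, summed to 2378 and 412 CPM (6 of 9 and 8 of 9 seen), and their part was not tested. Thbs1 was 5.35-fold (1.70 to 14.6) higher, from 6 and 15 UMIs. It was 14.2-fold (3.03 to 87.6) higher than in cluster 1. Against cluster 2 it was 3.07-fold (0.945 to 8.83) higher, an interval that includes 1. Its 6.72 CPM in arterial-like cells lay below the 9.93 CPM of EC free RNA. Sparc was 1.74-fold (1.70 to 1.79) higher, below the size of a call.

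Ctgf and Cyr61, the paired targets of YAP and TAZ, parted within the endothelium. Ctgf was 10.3-fold (4.99 to 25.7) lower in arterial-like cells, with 7 UMIs in 253 cells, and it was lower than in both large sinusoidal-like clusters, 9.39-fold (4.52 to 23.5) against cluster 1 and 11.5-fold (5.52 to 28.6) against cluster 2. Cyr61 was 2.44-fold (1.99 to 3.02) lower in arterial-like than in all sinusoidal-like cells, but this direction rests on cluster 2. Against cluster 1 alone Cyr61 was 1.51-fold (1.20 to 1.89) higher in arterial-like cells, and against cluster 2 4.52-fold (3.69 to 5.60) lower. The log2 ratio went from -1.29 to 0.56 without cluster 2. All log2 ratios of this comparison are lower by 0.19 with trimmed mean of M values scaling and by 0.13 with median ratio scaling.

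Between the sinusoidal-like clusters themselves, Cyr61 was the 1 gene called of 3 measured, beside 2.12% of 10939 genes higher in cluster 2 and 0.96% lower. It was 6.83-fold (6.18 to 7.57) higher in cluster 2, whereas Ctgf was 1.22-fold (1.07 to 1.39) higher and Sparc 1.08-fold (1.06 to 1.10) lower.

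Fstl1, a Sparc-related gene, was 5.71-fold (3.65 to 8.74) and Fbln5, which encodes the elastic fibre protein fibulin-5, 4.31-fold (3.65 to 5.08) higher in arterial-like cells. Tgfbi was 4.89-fold (3.12 to 8.16) and Spock2 2.54-fold (1.07 to 7.93) higher in sinusoidal-like cells, and the other 2 of the 6 matricellular genes measured were neither. Of 13 receptors 0 were higher and 1, Sdc4, lower (2.28-fold, 1.29 to 4.45). Of 15 YAP, TAZ and TEAD genes 2 were higher, Wwtr1 (2.27-fold, 1.87 to 2.74) and Vgll4 (2.13-fold, 1.78 to 2.54), and 2 lower. Of 10 TGF-beta and serum response factor targets 3 were higher, Tgfb1i1 (4.74-fold, 3.57 to 6.24), Smad7 (3.02-fold, 2.38 to 3.80) and Skil (2.75-fold, 2.15 to 3.47), and 0 lower. The counts of these lists stand beside 8.36% of all genes higher and 4.58% lower in arterial-like cells. Unlike the 10 genes, these related genes could enter the clustering, so their values within a library are a description.

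Within the LepR_tdT library, Postn, Wisp1 and Tnc were higher in osteolineage-like than in stromal-like cells, Wisp2 was lower and 5 genes were neither, beside 5.8% of 11766 genes higher and 6.54% lower. The median log2 ratio was 0.62 for the 9 measured and -0.06 for all genes. The log2 ratio of Postn was 7.10 (6.61 to 7.64), from 472 and 35 UMIs. Wisp1 was 12.6-fold (9.93 to 16.1) and Tnc 2.02-fold (1.93 to 2.11) higher, the last at the edge of a call. Wisp2 was 2.17-fold (1.97 to 2.38) lower, and no longer called at a finer clustering (log2 ratio -0.98). Sparc was 1.88-fold (1.84 to 1.93), Cyr61 1.54-fold (1.49 to 1.59) and Ctgf 1.19-fold (1.03 to 1.38) higher, and Thbs1 1.55-fold (1.11 to 2.24) lower. Fibroblast markers summed to 5905 CPM in osteolineage-like and 1096 CPM in stromal-like cells (9 of 9 seen in each), and erythroid markers to 2928 and 193 CPM (9 of 10 and 10 of 10), and their part in these ratios was not tested.

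Of 12 other matricellular genes measured, 3 were higher in osteolineage-like cells, Comp (12.7-fold, 10.9 to 14.8), Spp1 (5.88-fold, 5.81 to 5.95) and Tgfbi (3.59-fold, 2.49 to 5.10), and 2 lower, among them Smoc1 (6.10-fold, 4.01 to 9.76). Of 15 receptors 2 were higher and 1 lower. The higher ones were Itgb3 (6.53-fold, 4.25 to 9.91) and Itgb5 (4.98-fold, 4.44 to 5.58), the beta chains that pair with integrin alpha V to bind periostin. Of 17 YAP, TAZ and TEAD genes Tead2 (2.56-fold, 1.86 to 3.48) and F3 (45 against 3 UMIs, 153-fold, 49.1 to 770.2) were higher and Crim1 lower (4.34-fold, 2.76 to 7.24). F3 was among the genes that define the osteolineage-like cluster. Of 14 TGF-beta and serum response factor targets 2 were higher and 0 lower. The counts of these lists stand beside 5.8% of all genes higher and 6.54% lower in osteolineage-like cells.

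In cluster 7, Ctgf, Wisp1, Wisp2 and Tnc were lower than in stromal-like cells, Sparcl1 was higher and 4 genes were neither, beside 3.76% of 11745 genes higher and 4.56% lower. Wisp2 was 7.12-fold (6.07 to 8.40) lower, Ctgf 3.52-fold (2.68 to 4.72), Tnc 2.88-fold (2.63 to 3.16), and Wisp1 13.7-fold (2.42 to 546) from 1 UMI. Postn was 1 of the 4 called neither, at 3.81-fold (0.640 to 155) lower from 1 and 35 UMIs. Sparcl1 was 3.70-fold (2.32 to 5.77) and Thbs1 1.58-fold (1.26 to 1.96) higher, and Cyr61, the most counted CCN gene, was 1.09-fold (1.05 to 1.13) higher. LepR+ stromal markers summed to 54122 CPM in cluster 7 and 52686 CPM in stromal-like cells (14 of 14 seen in each). Osteolineage markers were lower in cluster 7, at 3402 against 8993 CPM (11 of 13 and 13 of 13 seen).

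Cyr61 went with a list of mostly immediate early genes within both populations. Immediate early genes, such as Fos, Jun and Egr1, are switched on by cells within minutes of a stimulus. The list of 15 also holds the heat shock genes Hspa1a and Hspa1b, and it holds none of the 10. Cells of at least 1000 UMIs were ranked by the share of their UMIs in the list and divided into 3 ranges of equal size. In stromal-like cells Cyr61 stood at 750.3 CPM in the low, 1677 in the middle and 2963 in the high range, 3.95-fold (3.81 to 4.10) between the ends. In EC endothelial-like cells it stood at 36.0, 146 and 527 CPM, 14.6-fold (12.3 to 17.5) between the ends. Median depths of the low and high ranges were 4700 and 4546 UMIs in stromal-like and 3037 and 3719 UMIs in endothelial-like cells.

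Ctgf differed far less along the same ranges. It was 1.47-fold (1.30 to 1.66) higher at the high end in stromal-like cells and 1.21-fold (1.03 to 1.42) in EC endothelial-like cells. Thbs1 was 1.44-fold (1.18 to 1.77) higher in stromal-like cells, while Tnc was 1.34-fold (1.29 to 1.40) and Wisp2 1.05-fold (0.998 to 1.10) lower. Cyr61 and Sparcl1 (2.14-fold, 1.12 to 4.27, 15 and 31 UMIs) were the 2 of 9 genes to reach a ratio of 2 in stromal-like cells, beside 1.72% of all genes higher and 1.01% lower. With scores from cells thinned to 1000 UMIs Sparcl1 was 1.91-fold (1.01 to 3.75) higher and no longer called. In EC endothelial-like cells it was Cyr61 alone of 4, beside 2.48% and 1.28%.

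**Figure D3:**
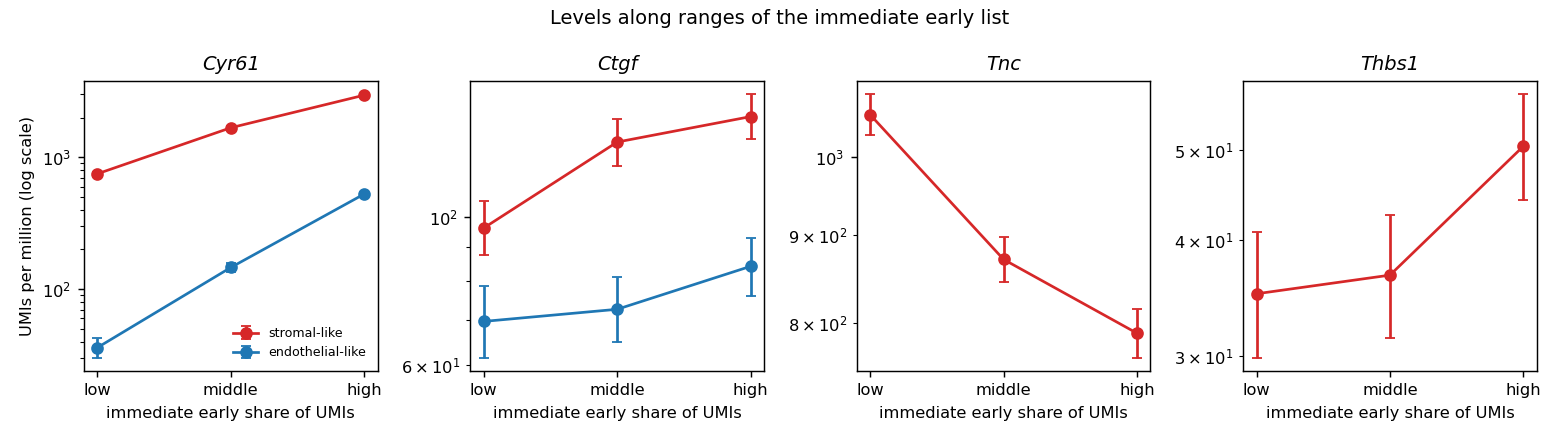
CPM (log axes that differ between panels) of 4 genes in the low, middle and high range of the immediate early share of UMIs, in stromal-like (red) and endothelial-like (blue) cells, with 95% Poisson intervals. Cyr61 is higher in each next range in both classes and Tnc is lowest in the high range. Tnc and Thbs1 are shown for stromal-like cells only, since endothelial-like cells held few of their UMIs.

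Along an adipogenic and an osteogenic list, Wisp2 took opposite directions in stromal-like cells. It went from 912 CPM in the low to 547 CPM in the high adipogenic range, 1.67-fold (1.59 to 1.75) lower, and from 532 to 859 CPM along the osteogenic one, 1.61-fold (1.54 to 1.70) higher. This stands beside its lower level in the osteolineage-like class. Median depths of the low and high ranges were 4434 and 4735 UMIs for the adipogenic and 4616.5 and 4650 UMIs for the osteogenic list. Tnc was 1.18-fold (1.13 to 1.23) lower at the adipogenic end and Thbs1 1.71-fold (1.38 to 2.14) lower at the osteogenic end. The genes that reached a ratio of 2 had few UMIs. Along the adipogenic list Sparcl1 was higher (2.41-fold, 1.30 to 4.70) and Postn lower (2.70-fold, 1.14 to 7.08), beside 0.65% of all genes higher and 1.24% lower. Along the osteogenic list Sparcl1 (3.93-fold, 1.93 to 8.80) and Postn (3.27-fold, 1.27 to 9.95) were higher, beside 0.829% and 1.14%. With scores from thinned cells Postn was 1.72-fold (0.736 to 4.25) lower along the adipogenic list and no longer called, and Sparcl1 was 2.14-fold (1.13 to 4.23) higher along the osteogenic one. In EC endothelial-like cells, where most of its UMIs were in arterial-like cells, Sparcl1 was 8.45-fold (4.24 to 19.1) lower at the adipogenic end, beside 0.51% of genes higher and 2.05% lower, and 4.71-fold (2.51 to 9.60) higher at the osteogenic end, beside 0.945% and 0.525%. With scores from thinned cells it was 3.78-fold (2.20 to 6.86) lower at the adipogenic end and 1.35-fold (0.831 to 2.23) higher at the osteogenic end, the latter no longer called. In these thinned cells the osteogenic share of UMIs was 0% in the low and middle ranges and 0.1% in the high range. The osteogenic ranking of endothelial-like cells thus rests on few UMIs.

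Detection of these genes in the same cell was compared after thinning to 1000 UMIs. Tnc was seen in 60.4% (54.6 to 66.0) of the 293 stromal-like cells with Ctgf and 53.0% (51.1 to 54.9) of those without. Cyr61 was seen in 20.9% (15.9 to 26.6) of the 239 EC endothelial-like cells with Ctgf and 15.0% (13.8 to 16.2) of those without. Tnc was seen in 53.6% (50.8 to 56.5) of stromal-like cells with Wisp2 and 53.8% (51.4 to 56.2) of those without. In each of these pairs the intervals with and without overlap. They are a few of the pairs compared, and others went the other way. Cyr61 was seen in 59.5% (57.0 to 62.0) of stromal-like cells with Tnc and 62.3% (59.6 to 64.9) of those without, which also overlap.

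Genes of the most similar pattern were ranked by Pearson's r of log2(CPM + 1) over 9 classes of at least 50 cells, among 2960 genes that reach 100 CPM in some class. Sparc was nearest to the transcription factor gene Nfic (r = 0.981), Oaz2 (0.977) and Mtch1 (0.973). Cyr61 was nearest to Scarf2 (0.989), the cystatin C gene Cst3 (0.981) and Atp6ap2 (0.977). Tnc was nearest to the retinoic acid synthesis gene Aldh1a2 (0.997) and the collagen VI genes Col6a2 (0.997) and Col6a1 (0.995). The classes share libraries and free RNA, so these values only describe the classes.

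**Figure D4:**
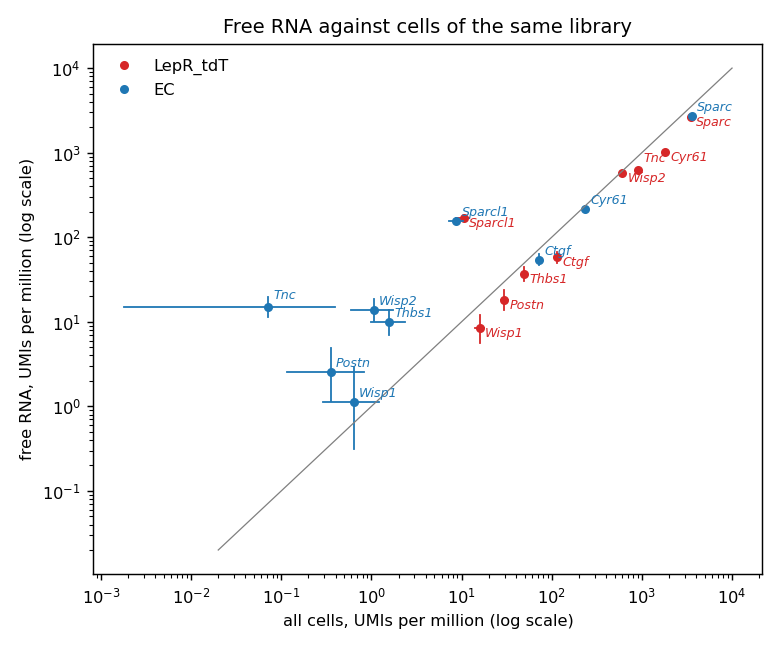
Level in free RNA against level in all cells of the same library, in CPM on log axes, for genes with more than 3 free UMIs and at least 1 UMI in cells, red for LepR_tdT and blue for EC, with 95% Poisson intervals. The grey line marks equal levels. Sparcl1 lies far above it in both libraries (170.2 and 156 CPM in free RNA), and Tnc, Wisp2, Thbs1 and Postn lie above it in EC.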

How the data were processed

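Droplet single-cell RNA libraries, 1 per group, were analysed from the deposited matrix of raw UMI counts and the authors' cell table, which holds no cell types. Cell Ranger 2.1.1, Seurat 2.3.4 and the build mm10 are listed, without their use, per the submitters' processing notes. Depths were 18139911 (LepR_tdT) and 14111524 UMIs (EC) in cells.

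Counts were scaled to 10000 per cell and logged. From the 2000 most variable genes, those seen in under 10 cells, mitochondrial genes, tdTomato and the 10 genes studied were removed, leaving 1577. Leiden clustering (30 components, 15 neighbours, resolution 0.5, best of 20 seeds) used scanpy 1.11.5 and igraph 0.11.9 in Python 3.11.15. A cluster took the name of the marker set with the largest share of genes at 1.5-fold or more, unless another set led its top 10 genes, mitochondrial genes led, or under 3 markers were up. That a leading gene must be seen in 12.5% of a cluster's cells, and that 75% of a set must be up where none leads, was chosen after seeing the clusters. With 10% in place of 12.5% the arterial-like cluster would have stayed unnamed and clusters 1, 2 and 10 would have lost the sinusoidal name, so the arterial to sinusoidal comparison could not have been made. With 15% the stress-led cluster 2 would have stayed unnamed. Scrublet marked 0 EC and 1 LepR_tdT cell and so did not work. Doublets were kept.

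Levels are UMIs per 1000000 of a class. No test was made, since there is 1 library per group. A call needs a 2-fold ratio, 20 UMIs and, added after values were seen, more than 3 UMIs in the higher class (fewer than 3 in the lower class count as 3), because the 3-UMI floor of a small class could otherwise exceed the level in a large class. Named besides the 10 genes were Wisp3, Lepr, Cdh5, up to 4 genes per related list with the most extreme stromal-like to endothelial-like ratio, and 3 genes of like pattern for each of the 3 most counted members. A gene that this rule picks is not reported here. Related genes named in the other comparisons were picked after their values were seen. The members and lists were chosen with earlier results of these data known. Interval code was tested on simulated counts. Alternatives were scaling, UMI minimum, free RNA, depth, averaging over cells, doublets, clustering and class rules.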

Additional observations from a re-analysis of the deposited data

Results flagged for a closer look

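Barcodes outside the cell table enter none of the comparisons above, and 7 levels in their free RNA were at least 2-fold above those in all cells of the same library, with intervals apart and more than 3 UMIs. Sparcl1 stood at 170.2 CPM in the free RNA of LepR_tdT, 16.1-fold its level in the cells, and at 156 CPM in that of EC, 17.9-fold. In EC free RNA Tnc stood at 15.0 CPM against 0.0709 CPM in cells. Wisp2 stood at 13.9 CPM there against 1.06, Thbs1 at 9.93 against 1.56 and Postn at 2.55 against 0.354. Nov stood at 2.55 CPM and had 0 UMIs in the cells of EC. The Postn and Nov values rest on 9 and 9 UMIs. Nov in LepR_tdT (3 UMIs) and Wisp1 in EC (4 UMIs) were also higher in free RNA than in cells, but short of these limits. Osteolineage markers summed to 270.3 CPM in EC free RNA (11 of 13 seen) and to 15.2 CPM in EC cells (8 of 13), and their part in these levels was not tested.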

How the results depend on the processing

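No paired analysis was possible because each group has 1 library, and no replicate could be left out. The counts of genes called between all cells of the libraries kept their values under all alternatives. Between stromal-like and endothelial-like cells, 6 stayed higher under all alternatives, and the number lower went from 0 to 1 (Sparcl1) with free RNA subtracted, with means over cells, at resolution 1.0, with the 10 genes among the clustering genes and without stress-led cluster 2. Between arterial-like and sinusoidal-like cells, the number higher went from 2 to 1 with the 10 genes among the clustering genes, with classes from marker UMIs of each cell, and without cluster 2, and the number lower from 2 to 1 under the first and last of these. There the log2 ratio of Cyr61 turned from -1.29 to 0.60 and 0.56. With the 10 genes among the clustering genes, the stress-led cluster (1460 EC cells) stayed unnamed. It thus left the endothelial-like and sinusoidal-like classes, much as when cluster 2 is left out. Without cluster 2 Thbs1 was no longer measured, with 6 UMIs in arterial-like cells and 3 in cluster 1, under the 20 needed. Without the condition on the higher class and without a UMI minimum, a pair of choices added after seeing the data, 6 would count as higher in arterial-like cells through the floor alone, beside 34.9% of all genes. Between osteolineage-like and stromal-like cells, the number lower went from 1 to 0 at resolution 1.0. With scores from thinned cells, the genes differing by 2-fold went from 2 to 1 along the adipogenic and the immediate early ranges of stromal-like cells and from 1 to 0 along the osteogenic range of endothelial-like cells. Leaving out the cells of the top 5% Scrublet scores or the barcode with the most Thbs1 UMIs, both chosen after seeing the data, changed no count of higher or lower genes (the log2 ratio of Thbs1 between libraries was 4.99 with and 4.71 without that barcode). Endothelial-like cells of EC held 9 Wisp1, 5 Postn and 0 Nov UMIs, so ratios against them rest on few counts.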
